A study of Mus musculus with 2 samples.

Results

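The NF-kappaB family and its inhibitors were examined as potential sites of STAT5 binding in effector CD8 T cells given IL-2. The family comprised 10 genes, which were the subunits Nfkb1, Nfkb2, Rel, Rela and Relb and the inhibitors Bcl3, Nfkbia, Nfkbie, Nfkbiz and Tnfaip3. They were found by gene name in the deposited table of 4934 genes near STAT5 regions. Of the 10 genes, 8 had a row, and Rela and Tnfaip3 had none and were counted as having no assigned region.

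STAT5 binding was measured by chromatin immunoprecipitation and sequencing (ChIP-seq), which reads out the DNA fragments that an antibody pulls down together with its target. The labels name the antibody target STAT5, and the extraction protocol names STAT5A. The IL-2 group was 1 library of cells cultured for 1 hour with IL-2 at 0.5 µg/ml, and the control group was 1 library of cells without IL-2. Both came from OT-I CD8 T cells of the C57BL/6 strain, whose transgenic receptor recognises an ovalbumin peptide. The cells of both groups had been placed in host mice, primed there with the SIINFEKL peptide plus CD134 and CD137 agonists, which act on costimulatory receptors, and sorted from spleens on day 4. The control cells had therefore met antigen and both agonists too. The sources used here do not state how many animals stand behind a library. Each group being 1 library, there were no replicates, no test of IL-2 against control and no spread by which the order of genes could be judged.

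NF-kappaB proteins are dimers of 5 related subunits. Nfkb1 and Nfkb2 encode the precursors p105 and p100, which are processed to p50 and p52. Rela, Rel and Relb encode the subunits with a transactivation domain. I-kappaB proteins hold the dimers in the cytoplasm until receptor signals, including those of the T cell receptor and of CD134 and CD137, lead to their degradation. IL-2 signals through JAK kinases to STAT5, whose dimers bind the palindrome TTCNNNGAA. IL-2 and NF-kappaB are both known inputs to the activation and survival of T cells.

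A region position fell in the RefSeq promoter window (250 bases before to 50 after a gene start, GRCm38.p6, which is the mm10 build) of 1 family gene, Nfkb2. The 250 bases before its start, chr19:46304487-46304736 on the plus strand, are shown because a STAT palindrome and NF-kappaB consensus matches lie together in them. The same stretch of Nfkbid, chr7:30423025-30423274 on the plus strand, is shown because that gene encodes a further nuclear I-kappaB protein and also had a region there. Capitals mark TTCNNNGAA, which reads alike on both strands, and the 10-letter NF-kappaB consensus, searched on both strands.
Nfkb2: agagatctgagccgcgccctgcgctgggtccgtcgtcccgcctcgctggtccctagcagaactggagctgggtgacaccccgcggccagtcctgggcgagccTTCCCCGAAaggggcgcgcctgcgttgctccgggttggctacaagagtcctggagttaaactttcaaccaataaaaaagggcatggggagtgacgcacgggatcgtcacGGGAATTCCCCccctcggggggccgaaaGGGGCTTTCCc
Nfkbid: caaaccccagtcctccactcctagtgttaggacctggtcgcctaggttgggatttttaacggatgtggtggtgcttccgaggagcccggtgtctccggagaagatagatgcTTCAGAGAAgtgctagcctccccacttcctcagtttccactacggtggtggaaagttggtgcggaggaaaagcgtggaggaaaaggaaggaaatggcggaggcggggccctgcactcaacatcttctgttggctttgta

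In Nfkb2 the palindrome began 148 bases before the gene start, and the region position was 193 bases before it, 45 bases from the match. NF-kappaB matches, of which a pair overlapped, lay nearer the start, the first of them 39 bases before it. In Nfkbid the palindrome began 139 bases before one of its RefSeq starts, 32 bases from the region position, and no NF-kappaB match was found in this window. The window of its start at 30422406 held 2 NF-kappaB matches, and that of its start at 30421731 held 1 palindrome. Neither of these windows held a region position. TTCNNNGAA was present in 8.30% of all 32851 promoter windows and in 202 of the 437 windows that held a region position (46.2%). Windows of one gene can overlap, and a match of letters is a description of the sequence, not a binding site.

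Promoter windows were given for 7 of the 10 family genes, and Nfkb1, Relb and Nfkbiz had no entry. The palindrome was found in 1 of these 7 genes, Nfkb2, against 9.55% of the 27025 genes with a window. The NF-kappaB consensus was found in 6 of the 7, all but Rela, against 9.55% of genes. The share of windows with the NF-kappaB consensus was 8.46% over all windows and 9.61% among those that held a region position. The first matches upstream of the start in the other genes are shown with up to 10 bases on each side, since these genes are known to be controlled in part by NF-kappaB itself. They lie at chr11:23771042-23771071 (Rel), chr12:55492657-55492686 (Nfkbia) and chr10:19015516-19015545 (Tnfaip3) on the minus strand, and at chr17:45555584-45555613 (Nfkbie) on the plus strand. Capitals mark the match, which overlaps a further one in Rel.
Rel: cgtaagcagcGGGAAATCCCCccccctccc
Nfkbia: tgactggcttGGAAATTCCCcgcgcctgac
Nfkbie: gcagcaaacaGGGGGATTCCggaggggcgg
Tnfaip3: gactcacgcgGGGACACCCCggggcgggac

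The match of Bcl3 lay just after its start and is not shown. For the genes in these lines no region position fell in the printed window.

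Each listed gene has a mean peak height in each library over its regions and a highest peak, which the deposited table places in the IL-2 library for all 4934 listed genes. Heights are in signal units as deposited. Over all listed genes the median of the mean height was 20.75 in the IL-2 library (interquartile range 15 to 33) and 5 in the control library (4 to 5.8). Intervals were called in the control library near 12 listed genes, and 0 of the family genes were among them. Of the genes taken as CD8 T cell markers, most of which mark T cells in general, 7 of 7 had a region. The counts were 0 of 5 for B cell and 0 of 4 for myeloid markers. Over all protein-coding genes the share was 19.1%. Some of the CD8 T cell markers shared a region. A region is no measure of expression, so these counts do not settle the cell type.

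The 8 listed family genes held 19 regions, all called in the IL-2 library. STAT5 height was far from even among them. Nfkbiz had a single tall peak, Nfkb1 had many regions with 1 tall peak, Bcl3 and Rel were intermediate, and Nfkb2, Relb, Nfkbia and Nfkbie had low peaks. The share of family genes with a region, 8 of 10, stands beside 19.1% of the 21900 protein-coding genes of the RefSeq table. The ratio of IL-2 to control, computed on heights plus 5, was at least 2 for 5 of the 8 genes. The same held for 83.8% of the whole table. A ratio of 4 was reached by 2 of them, Nfkb1 and Nfkbiz, and by 23.1% of the whole table. The median log2 ratio of the 8 was 1.42, the same as that of all listed genes, 1.42. Genes were listed for an IL-2 interval, so ratios in the table favour IL-2.

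The scaling between the libraries is unknown, and the direction at low heights depends on it. When both were scaled to the same median over listed genes, Nfkbiz kept a log2 ratio of 1.69, Nfkb1 had 0.82 and Bcl3 0.48, Rel 0.09 and Nfkb2 0.02, while Relb (-0.60), Nfkbia (-0.52) and Nfkbie (-0.98) were higher in control. Over all listed genes 2898 of 4934 stayed higher with IL-2 under that scaling, and the median log2 ratio was 0.13. Equal medians remove any overall difference between the libraries, so the lowest ratios move towards control by construction.

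**Figure D1:**
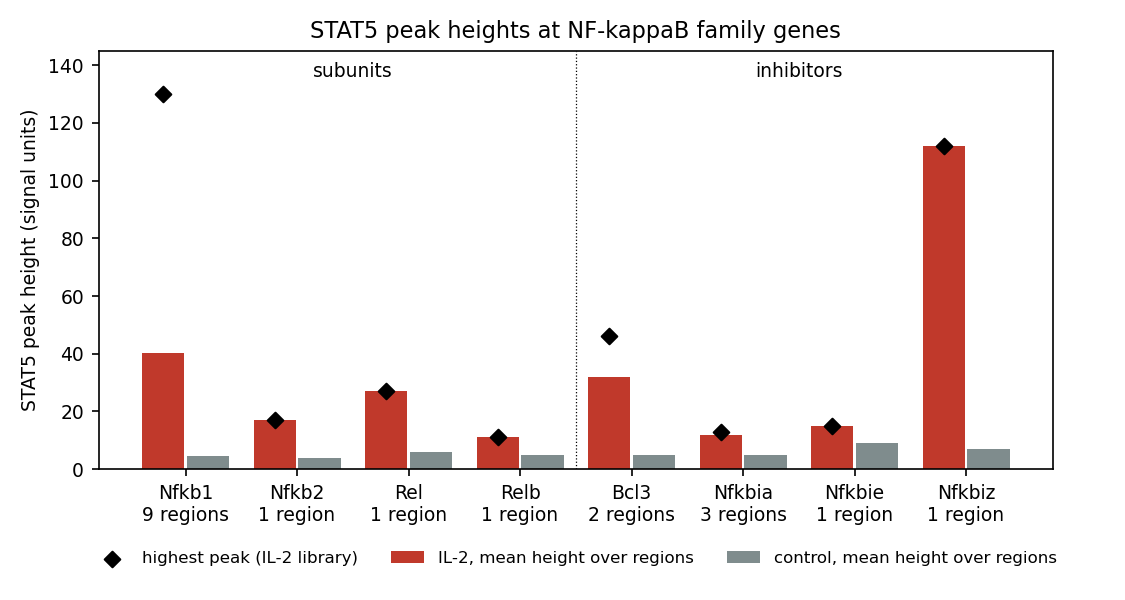
STAT5 peak height in signal units for the 8 listed family genes, subunits on the left and inhibitors on the right, with 1 library per group. Red bars are mean heights over a gene's regions with IL-2, grey bars those in control, and diamonds the highest peak. Nfkbiz (112 with IL-2) and the highest peak of Nfkb1 (130) stand above the others, while Relb, Nfkbia and Nfkbie stay at 15 or lower with IL-2.

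Among the subunits, Nfkb1, on chromosome 3 on the minus strand, had 9 regions, which averaged 40.33 in the IL-2 library and 4.67 in the control library (log2 ratio 2.23). Its mean IL-2 height was above that of 82.8% of listed genes and its highest peak, 130, above that of 98.2%, the 85th of 4934. The heights of its regions sum to 363 with IL-2, so that the 8 regions beside the highest averaged 29.1. The table does not determine which of the 9 held the highest peak.

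Of these 9 regions 1 lay upstream of the gene start, at 2821 bases, and 8 lay within the 106.9 kb gene. The nearest to the start was 1979 bases inside it, at position 135689568. A group of 3 followed at 20107, 25643 and 28955 bases, and the remaining ones lay at 56219, 69947, 80891 and 86651 bases. From the first to the last they spanned 89.5 kb, and 0 of them were assigned to another gene. At least 9 regions were assigned to 34 of the 4934 listed genes. Among the 661 listed genes of 100 kb or longer the median was 1 region, and 24 had 9 or more. Nfkb1 is therefore also one of the genes with the most STAT5 regions in the table.

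Rel, which encodes c-Rel, a subunit of activated lymphocytes, had 1 region with a height of 27 in the IL-2 library and 6 in the control library (log2 ratio 1.54). It lay 1370 bases inside the gene, on chromosome 11 at 23769600, and its IL-2 height was above that of 65.2% of listed genes. Nfkb2 had 1 region with 17 in the IL-2 library and 4 in the control library (log2 ratio 1.29), above 35.5% of listed genes in IL-2 height. This is the region in the promoter window shown above. RefSeq also gives Nfkb2 an earlier start, at 46300994, so the same position lies within the gene in that annotation. The region was assigned as well to 4833438C02Rik, 1085 bases inside it, and to Psd, 7543 bases past its end.

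Relb, whose protein pairs with p52 in the non-canonical branch of the pathway, had the lowest IL-2 height of the family. Its 1 region had 11 in the IL-2 library and 5 in the control library (log2 ratio 0.68), and 2.09% of listed genes had a lower IL-2 height. It lay 386 bases upstream of the start, on chromosome 7 at 19629824, and was also assigned to Clptm1, 1756 bases past the end of that gene. Rela, which encodes p65, had no row. The nearest listed intervals lay 147 kb from the gene at lower coordinates, near Cfl1, Efemp2, Mus81 and Snx32, and 150 kb from it at higher ones, near Malat1. By the interval numbers, 1 further interval was called between these and was near no listed gene, so its position is unknown.

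**Figure D2:**
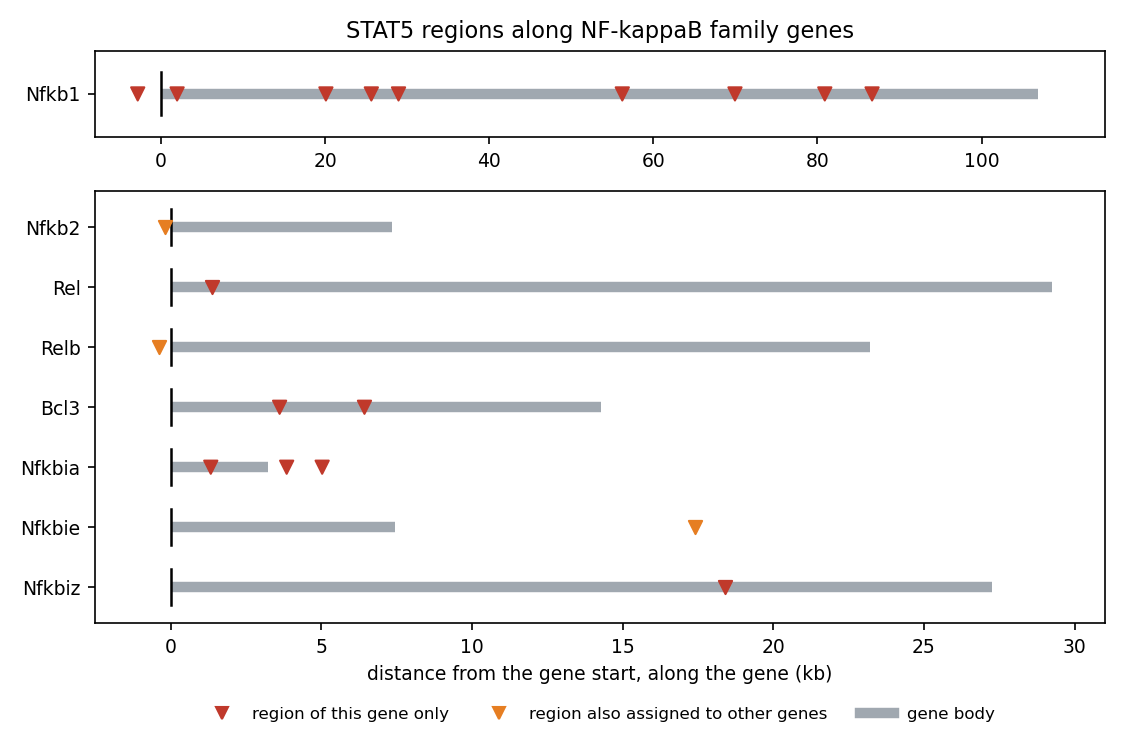
Regions (triangles) along the 8 listed family genes by distance from the gene start in kb, with gene bodies as bars. Nfkb1 has its own scale. Regions of Nfkb1 are spread from 2.8 kb upstream to 86.7 kb inside the gene, those of Nfkb2 and Relb lie just upstream of the start, and that of Nfkbie lies beyond the gene end. Orange marks regions also assigned to other genes.

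Of the inhibitor group, Nfkbiz had the highest mean height of the family. It encodes I-kappaB-zeta, a nuclear protein that binds p50 and can raise as well as lower transcription. Its 1 region had 112 in the IL-2 library and 7 in the control library (log2 ratio 3.29). By mean IL-2 height it was the 27th of 4934 listed genes and by ratio the 66th, and by highest peak the 158th. The control height of 7 was itself above that of 90.4% of listed genes. The region lay deep in the gene, 18385 bases from the start of a 27.3 kb gene, on chromosome 16 at 55820256. It was assigned to 0 other genes.

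Bcl3 encodes another nuclear I-kappaB protein, which binds p50 and p52 dimers. Its 2 regions had a mean of 32 in the IL-2 library and 5 in the control library (log2 ratio 1.89), with a highest peak of 46, so that the other had 18. They lay 3619 and 6435 bases inside the gene on chromosome 7, and which of them was taller is not determined. Relb and Bcl3 are near each other on that chromosome, 186 kb apart by their nearest regions, and by the interval numbers 0 intervals were called between these.

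The classical cytoplasmic inhibitors had low peaks. Nfkbia encodes I-kappaB-alpha, the inhibitor that NF-kappaB itself induces in a rapid feedback loop. Its 3 regions had a mean of 12 in the IL-2 library and 5 in the control library (log2 ratio 0.77), with a highest peak of 13 and 11.5 as the mean of the other 2. One lay 1335 bases inside the 3.24 kb gene, and the others 615 and 1793 bases past its end. The mean IL-2 height was above that of 5.92% of listed genes, while 3 or more regions were assigned to 771 of the 4934.

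Nfkbie encodes I-kappaB-epsilon, a further cytoplasmic inhibitor. Its 1 region had 15 in the IL-2 library and 9 in the control library, the lowest log2 ratio of the family at 0.51. The control height of 9 was the highest of the family and above that of 98.6% of listed genes. The region lay 9951 bases past the gene end, on chromosome 17 at 45573120. The same position is 141 bases inside Hsp90ab1, which encodes a cytosolic heat shock protein, and 5451 bases past the end of Slc35b2. Leaving out regions that are neither inside the gene nor within 1 kb of its start leaves 7 of the 10 family genes with a region, without Nfkbie.

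Tnfaip3 encodes A20, a ubiquitin-editing enzyme that limits NF-kappaB signalling, and had no row. The nearest listed intervals lay 993 kb from the gene at lower coordinates, near Abracl, and 153 kb from it at higher ones, near Gm20139. By the interval numbers, 4 further intervals were called between these and were near no listed gene. Such unassigned intervals were also counted between the regions of other family genes and the nearest listed intervals, over gaps of unlike width. There were 6 in the 3401 kb between Nfkbiz and Alcam at lower coordinates, and 1 in the 133 kb on its other side. The 5746 kb on the higher side of Rel held 2. On the lower side, the 679 kb of Nfkbie held 2 and the 85.5 kb of Nfkbia held 1. The gaps of Nfkb1, Nfkb2, Relb and Bcl3 held 0 and were only 26.2 to 248 kb wide. Where in a gap an unassigned interval lay is unknown, so it may be far from the gene. In all, 1591 of 7294 intervals called in the IL-2 library were near no listed gene.

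Of the 19 family regions, 13 were in the gene, 3 upstream and 3 downstream. Nfkb1 held 8 of the 13, and without it 5 of 10 regions were in the gene. Over all 8337 pairs of a listed gene and an assigned region, 50.01% were in the gene. Within 1 kb of the gene start lay 2, those of Nfkb2 and Relb, and both were upstream and low. Over all pairs in the table, 22.0% were that near to the start of the gene. All 12 regions of the subunits were inside or upstream of the gene, and the 3 downstream regions belonged to Nfkbia and Nfkbie. With 3 of 19 regions also assigned to other genes, the assignment was shared for Nfkb2, Relb and Nfkbie.

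**Figure D3:**
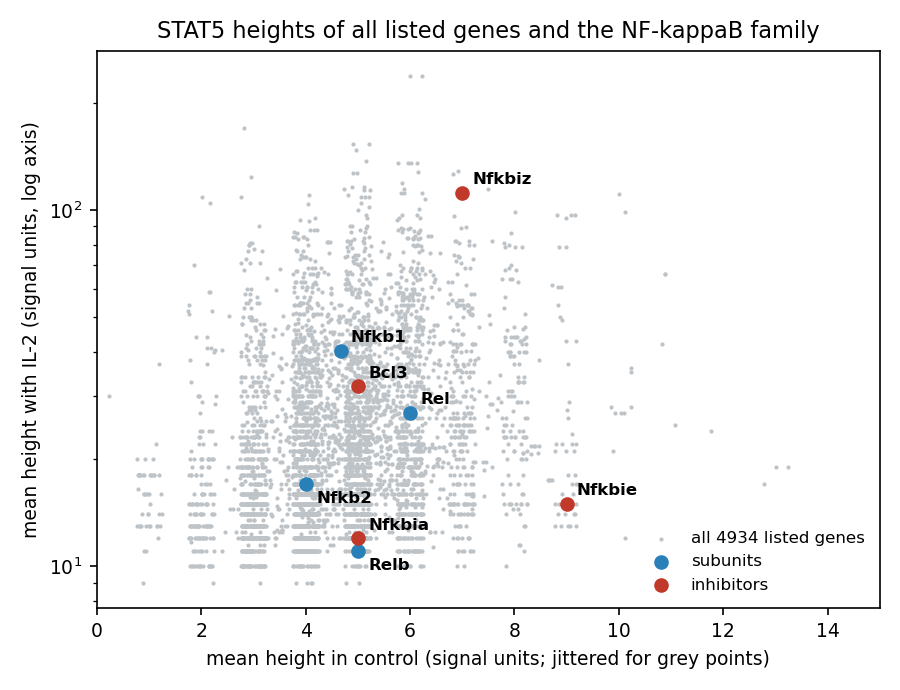
Mean height with IL-2 (log axis) against mean height in control for all 4934 listed genes (grey; 3 with a control height above 15 are outside the plot) and for the family genes. Nfkbiz is near the upper edge of the cloud, Nfkb1, Bcl3 and Rel are in its middle and upper part, Nfkb2 is in its lower part, and Nfkbia and Relb are near the lower edge. Nfkbie is apart from the other family genes at a control height of 9.

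By role, the 4 listed subunits had mean IL-2 heights of 11 to 40.33 and control heights of 4 to 6, and 3 of them had a ratio of at least 2. The 4 listed inhibitors had mean IL-2 heights of 12 to 112 and control heights of 5 to 9, and 2 had such a ratio. Over all listed genes 83.8% had it. Within the family, the nuclear I-kappaB genes Bcl3 and Nfkbiz had greater mean IL-2 heights than the cytoplasmic ones Nfkbia and Nfkbie. The only region of Nfkbie was also assigned to Hsp90ab1 and Slc35b2. Nfkbid, the nuclear I-kappaB gene whose promoter is shown above, had 1 region with 14 in the IL-2 library and 4 in the control library (log2 ratio 1.08). That region was also assigned to Hcst and Tyrobp. The IL-2 height of Nfkbid was below the 15 of Nfkbie, so the contrast did not extend to all nuclear I-kappaB genes.

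Other genes of the NF-kappaB pathway were taken as a list of 56. Of these 38 were listed, against 19.1% of all protein-coding genes, and 35 of the 38 reached a ratio of 2, as did 83.8% of the whole table. With both libraries scaled to equal medians, 30 of the 38 stayed higher with IL-2, as did 2898 of all 4934 listed genes. The median log2 ratio of the 38 was 1.86, against 1.42 over all listed genes, and the 38 held 95 gene-region assignments. Some regions are shared between list members, so the genes are not independent. The 18 without a row were Nfkbib, Ikbkb, Ikbkg, Map3k7, Traf3, Rbck1, Otud7b, Tnip2, Tax1bp1, Itch, Tnfrsf1a, Cd40, Ltbr, Tlr2, Tlr4, Cd40lg, Il1a and Il1b. Among them are a catalytic subunit, IKK-beta (Ikbkb), and the regulatory subunit NEMO (Ikbkg) of the kinase that phosphorylates I-kappaB. The other catalytic subunit, IKK-alpha (Chuk), was listed, with 1 region 11 bases upstream of its start. That region had 14 in the IL-2 library and 2 in the control library (log2 ratio 1.44) and was also assigned to Cwf19l1.

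By role, 8 of 11 genes of the IKK complex and kinases were listed, 7 of them with a ratio of at least 2, with a median IL-2 height of 17.7 and a median control height of 3.25. Of the T cell receptor route 3 of 3 were listed, each with such a ratio. Adapters of the TRAF and IAP families were listed for 8 of 9, of which 7 had it, and linear ubiquitin and deubiquitinase genes for 6 of 11, of which 5 had it. Receptors were listed for 8 of 13 and ligands for 4 of 7, each listed gene with a ratio of at least 2. The ligands had the highest medians of these groups, 83.75 in the IL-2 library and 6 in the control library, but 3 of the 4 share regions in the Lta, Tnf and Ltb cluster. A gene counts as listed wherever its region lies. A region within 1 kb of the start was assigned to 21 of the 38 listed genes and to 0 of the 3 of the T cell receptor route. The same share over all listed genes was not computed.

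The largest ratio of the pathway list was that of Ripk1, a kinase downstream of TNF receptors. It had 114 in the IL-2 library and 5 in the control library (log2 ratio 3.57) at a region 186 bases upstream of its start, also assigned to Serpinb6a. Otulin, a deubiquitinase of linear chains listed under its older name Fam105b, had 4 regions with a mean of 74 in the IL-2 library and 5.5 in the control library (log2 ratio 2.91). Both genes act on the same receptor complexes as A20.

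Tnf, Lta and Ltb, cytokines that activate the pathway, had log2 ratios of 3.01, 3.01 and 2.96. Tnfrsf18, which encodes the costimulatory receptor GITR, had a mean of 75.67 in the IL-2 library and 6.33 in the control library over 3 regions, some shared with Tnfrsf4 (CD134). Tnfsf11, which encodes the ligand RANKL, had 53 in the IL-2 library and 4 in the control library 1227 bases inside the gene. Traf1, an adapter of CD137 and other TNF receptors, had a mean of 64 in the IL-2 library and 6 in the control library over 4 regions, with a highest peak of 116.

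The smallest ratios were those of Traf2, Sharpin and Ikbke. Traf2, another adapter, had 14 in the IL-2 library and 7 in the control library (log2 ratio 0.66). Sharpin, a subunit of the linear ubiquitin ligase, had 12 in the IL-2 library and 5 in the control library at a region 7078 bases from its start that was shared with 3 genes. Ikbke, an IKK-related kinase, had 11 in the IL-2 library and 4 in the control library at a region also assigned to Rassf5.

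**Figure D4:**
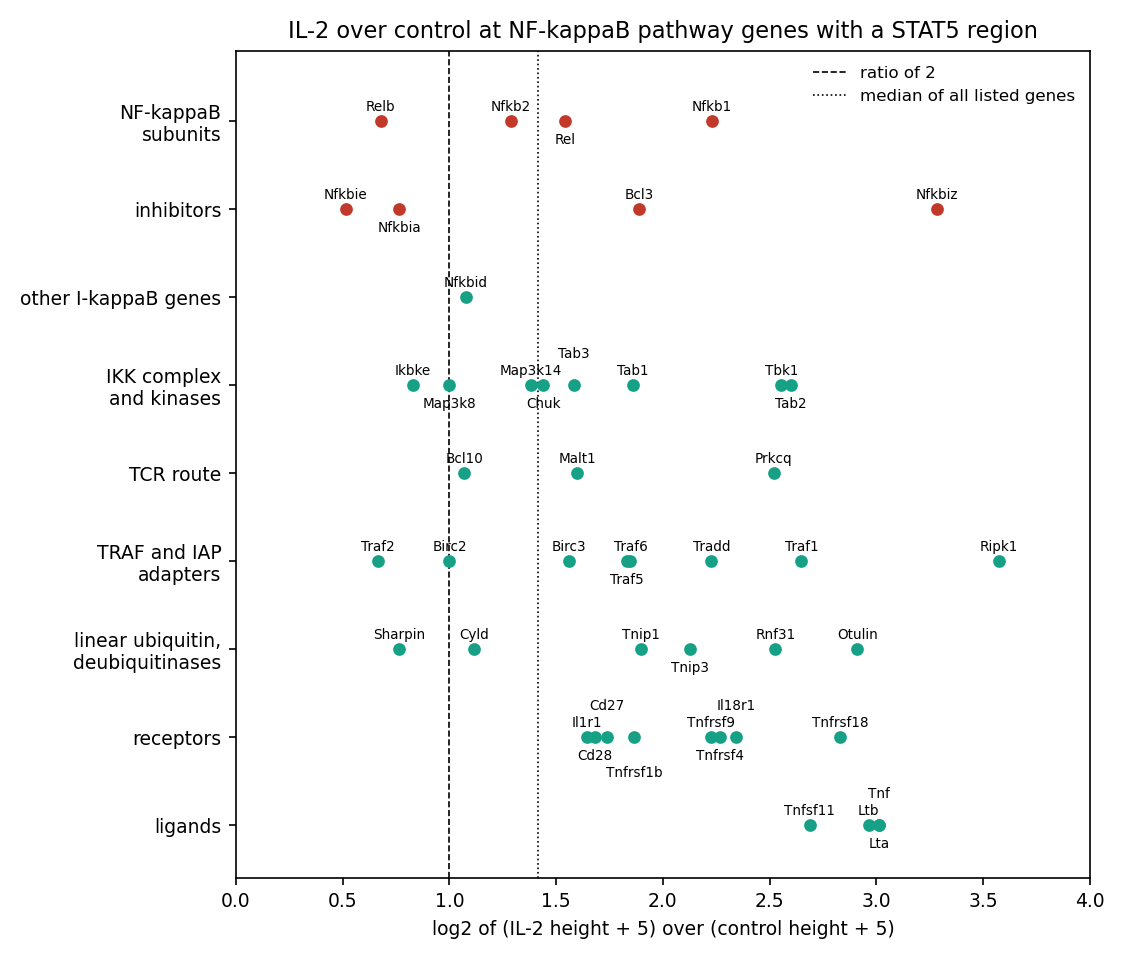
Log2 ratio of IL-2 height plus 5 over control height plus 5 for the listed family genes (red) and other pathway genes (green) by role, 1 library per group. The dashed line marks a ratio of 2 and the dotted line the median of all listed genes, 1.42. Ripk1 (3.57) and Nfkbiz (3.29) are farthest to the right, and Nfkbie (0.51) is farthest to the left.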

How the data were processed

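STAT5 ChIP-seq was available for 1 IL-2 and 1 control library. BWA and mm10 are named per the submitters' processing notes. The sources used here name no peak caller, read depth or scaling, so no counting error can be stated. The authors deposited 1 table of genes near regions, whose peak heights are a signal, with region numbers and presence calls. Heights of single regions are not given: a mean times the region number gave the sum, and the highest peak was subtracted. Mean and highest height were equal for 3287 of 3287 genes with 1 region.

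Positions were computed from gene start and distance. They are multiples of 16 for 18 of 19 family regions, so they are mostly given in steps of that size. With no peak caller named, how closely they locate a bound site is unknown. Interval numbers follow genomic order without a reversal (0 found). Log2 ratios used a pseudocount of 5, which understates the change of low heights, and a ratio of 2 was counted. Python 3.11.15, pandas 2.3.3, numpy 2.4.6 and matplotlib 3.10.9 were used, and the computation of ratios and positions was tested on artificial input with known answers. Identifiers, starts and promoters came from RefSeq tables of GRCm38.p6. The promoter search replaced one around regions, since no genome sequence was used here.

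The family and the lists were chosen with earlier results of these data known. Named are all family genes, genes sharing their regions, the 8 largest and 3 smallest ratios of the pathway list and its absent genes. An item of that list is not reported here. Nfkbid and Chuk were named after their values were seen. Alternatives were pseudocounts of 1 and 10, equal medians, the highest peak, a ratio of 4, a distance of 5 kb and regions in or near the gene.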

Additional observations from a re-analysis of the deposited data

How the results depend on the processing

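No paired analysis was possible because there was a single library per group. The count of 5 family genes past the 2-fold rule became 2 with a ratio of 4 (Nfkb1 and Nfkbiz; 23.1% of all listed genes), 1 (Nfkbiz; 11.9%) with equal medians, 7 with a pseudocount of 1 (96.7%), 4 with 10 (56.4%) and 5 with the highest peak (85.5%). Their median log2 ratio, 1.42, became 1.92 with a pseudocount of 1, 1.08 with 10 and 0.056 with equal medians, and with the highest peak in place of the mean it was again 1.42. The median over all listed genes was 2 with a pseudocount of 1, 1.06 with 10, 0.13 with equal medians and 1.53 with the highest peak. Of the 38 listed pathway genes, the 35 past the 2-fold rule became 17 with a ratio of 4 and 12 with equal medians. They became 37 with a pseudocount of 1, 30 with 10 and 35 with the highest peak. The shares of all listed genes in these settings are those given above beside the family counts. Family regions near a start numbered 2 within 1 kb and 8 of 19 within 5 kb, against 40.5% of all pairs of gene and region within 5 kb. The stricter ratio and the wider distance change these counts by construction, and equal medians remove any overall difference between libraries. With the highest peak, the log2 ratio was 3.80 for Nfkb1 and 2.35 for Bcl3. Motif searches within 50 and 250 bases of region centres were not run, since no genome sequence was used here.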
